A study of Homo sapiens with 6 samples.

Results

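The CpGs described here are those of intermediate methylation in CpG-dense stretches of the autosomes of PC-3, a long-established prostate carcinoma cell line of human origin, whose DNA was read by bisulfite sequencing. They were chosen by their measured levels: each had a mean methylation level of 20 to 80% over the 6 libraries, with at least 10 reads in each library, and a place in a 1000-base window, counted from position 1 of the chromosome, in which 40 or more CpGs were listed in any library. These rules chose 14680 of the 330421 autosomal CpGs covered in all 6 libraries (4.44%), and 11.4% of the 129002 such CpGs in dense windows. Of the other CpGs in dense windows, 96425 (74.7%) lay under 20% and 17897 (13.9%) over 80%.

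Treated cells received 160 µM S-adenosylmethionine (SAM) for 5 days (3 libraries), and the control cells received PBS as vehicle for the same 5 days (3 libraries). All 6 libraries came from the same cell line, and nothing in the labels says that replicates were separate cultures, so every p-value reflects just the spread among these libraries and may be of technical origin. The members had median depths of 105, 45 and 164 reads in SAM replicates 1 to 3, against 154, 41 and 124 reads in control replicates 1 to 3. The mean level over the 6 libraries chose the members, so the levels themselves are given as a description.

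A CpG is a C followed by a G, the site at which DNA methyltransferases place a methyl group on cytosine, and SAM is the donor of that methyl group. Stretches rich in CpGs, known as CpG islands, often hold gene start sites and are mostly unmethylated in normal cells, whereas CpGs elsewhere are mostly methylated, and some islands gain methylation in cancer. At imprinted genes one parental copy is methylated and the other is not, which gives intermediate levels in DNA from many cells. A level is a share of reads over many cells and over all copies of a locus, so it does not say which copies carry the mark.

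Promoters in which many of the CpGs were members show what such a stretch looks like. Each sequence below is the 250 bases before a start site in RefSeq (GRCh38.p14), written in the direction of the gene, with the CpGs that were members in capitals. Lower-case cg marks CpGs under 20%, over 80% or not covered in all 6 libraries. No hg19 genome was used here, so the hg19 coordinates are those at which the spacing of the CpGs in the RefSeq sequence met the listed CpGs, and bases between CpGs may differ between the builds. CNTN4 encodes a neural cell adhesion molecule, ADCY1 an adenylate cyclase of the brain and RGS7 a regulator of G protein signalling, and these were among the genes with the most members in a placed promoter. ZDBF2 is an imprinted gene and GSTP1 encodes a glutathione S-transferase whose promoter is methylated in most prostate cancers. GSTP1, and all gene starts named with windows and runs, were placed with 8 or more of the CpGs listed, and the other 4 promoters with at least 80% listed.
CNTN4: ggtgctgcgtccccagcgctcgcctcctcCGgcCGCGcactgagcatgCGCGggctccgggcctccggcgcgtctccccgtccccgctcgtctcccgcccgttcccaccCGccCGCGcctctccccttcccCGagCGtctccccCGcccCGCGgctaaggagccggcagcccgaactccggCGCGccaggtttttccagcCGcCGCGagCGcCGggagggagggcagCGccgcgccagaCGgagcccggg
ADCY1: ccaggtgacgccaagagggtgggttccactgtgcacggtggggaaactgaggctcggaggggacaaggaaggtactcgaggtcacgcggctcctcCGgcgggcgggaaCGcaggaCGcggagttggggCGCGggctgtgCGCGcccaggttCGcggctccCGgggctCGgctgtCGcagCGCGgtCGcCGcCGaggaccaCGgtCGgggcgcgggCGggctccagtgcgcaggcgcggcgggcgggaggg
RGS7: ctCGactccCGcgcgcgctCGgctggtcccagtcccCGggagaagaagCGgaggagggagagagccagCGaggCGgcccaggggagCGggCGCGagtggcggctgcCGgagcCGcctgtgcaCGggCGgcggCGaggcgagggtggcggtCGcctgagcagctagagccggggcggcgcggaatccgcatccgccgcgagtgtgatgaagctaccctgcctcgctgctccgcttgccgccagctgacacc
ZDBF2: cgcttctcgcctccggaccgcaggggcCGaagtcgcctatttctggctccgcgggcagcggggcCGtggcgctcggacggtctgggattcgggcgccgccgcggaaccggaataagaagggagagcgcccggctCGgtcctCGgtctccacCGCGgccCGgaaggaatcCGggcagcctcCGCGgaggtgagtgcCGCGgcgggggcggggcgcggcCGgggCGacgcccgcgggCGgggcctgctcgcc
GSTP1: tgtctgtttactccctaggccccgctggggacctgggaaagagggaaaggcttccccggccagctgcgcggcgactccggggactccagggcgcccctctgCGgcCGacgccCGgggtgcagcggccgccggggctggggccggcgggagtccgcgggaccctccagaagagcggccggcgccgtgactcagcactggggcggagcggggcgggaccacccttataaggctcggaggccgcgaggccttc

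The CNTN4 stretch lay at chr3:2140300-2140549 on the plus strand and held 40 CpGs, of which 25 were covered in all 6 libraries and 22 were members, with mean levels of 25.99% to 73.5%. ADCY1 lay at chr7:45613717-45613966 on the plus strand and held 36 CpGs, 23 covered in all 6 libraries and 19 members at 20.5% to 78.3%. RGS7 lay at chr1:241520259-241520508 on the minus strand and held 34 CpGs, 25 covered and 16 members at 49.2% to 79.6%. ZDBF2 lay at chr2:207139484-207139733 on the plus strand and held 42 CpGs, 26 covered and 15 members at 26.1% to 77.5%. GSTP1 lay at chr11:67351033-67351282 on the plus strand and held 28 CpGs, of which only 5 were covered in all 6 libraries and 3 were members at 22.1% to 39.2%. Members could lie within a few bases of CpGs of low level: in CNTN4 the CpG 11 bases before the start site had a mean level of 25.99%, and that 18 bases before it 3.13%. In RGS7 the covered CpGs that were not members lay instead at 80.9% to 94.2%.

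Intermediate levels were less common in dense windows than in windows with fewer listed CpGs. They made up 11.4% of the covered CpGs in windows of 40 or more listed CpGs. The share was 12.5% in windows of 15 to 39, 15.4% in those of 5 to 14 and 20.6% in those of 1 to 4. Within the dense windows the share was 10.97% for 40 to 59 listed CpGs, 11.2% for 60 to 79, 11.9% for 80 to 99 and 13.5% for 100 or more. The median level of the intermediate CpGs was 46.4% in dense windows, against 50.6%, 55.8% and 56.6% in windows of 15 to 39, 5 to 14 and 1 to 4. Members were spread over the whole range: 3339 (22.7%) had 20 to 30% and 2317 (15.8%) had 70 to 80%, and 29.4% lay at 40 to 60%. Just outside and just inside the lower bound were 436 CpGs at 19 to 20% and 407 at 20 to 21%. At the upper bound 250 lay at 79 to 80% and 231 at 80 to 81%. At the bound of density, 749 CpGs of intermediate level lay in windows of 38 or 39 listed CpGs, with a mean level of 48.9%, and 878 in windows of 40 or 41, with a mean level of 48.7%. Listed CpGs depend on coverage as well as on sequence, so a sparser window can be rich in CpGs but poorly covered. The GNAS promoter at chr20:57416425-57416724 held 34 CpGs in its sequence, but its window had 15 listed. Every comparison with sparser windows, here and below, therefore mixes CpG density with coverage, and their parts were not separated.

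**Figure D1:**
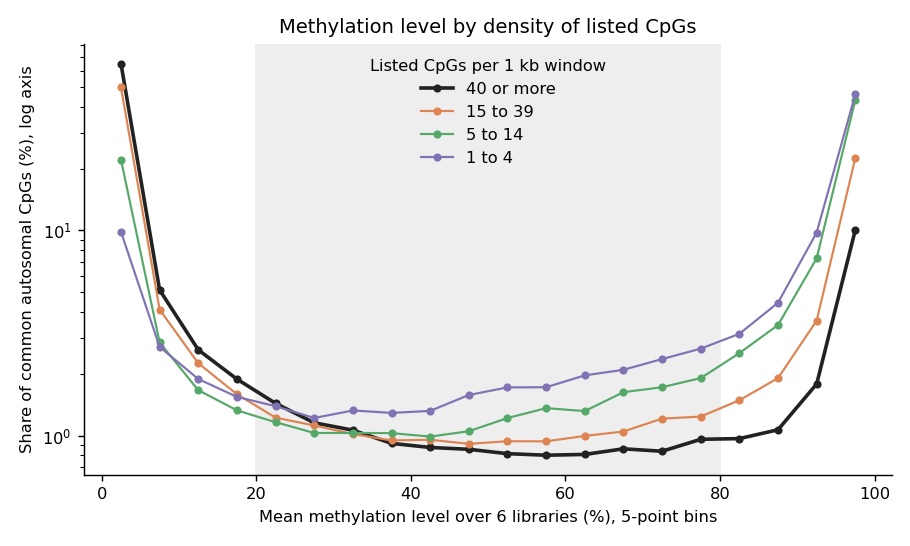
Share of the autosomal CpGs covered in all 6 libraries (%, log axis) by mean methylation level in bins of 5 percentage points, for 4 classes of listed CpGs per 1 kb window, with the 20 to 80% range shaded. In dense windows 65.1% of CpGs lay under 5% and 10.1% over 95%, and each bin of the shaded range held between 0.802% and 1.43%.

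The mean level of the members did not separate the groups. Library means were 47.5%, 47.98% and 47.4% in SAM replicates 1 to 3, against 47.1%, 47.7% and 48.6% in control replicates 1 to 3. The SAM values lay inside the range of the controls. The group means were 47.6% ± 0.325 in SAM libraries and 47.8% ± 0.755 in controls (SD, n = 3 each). SAM minus control came to -0.193 ± 0.475 percentage points (standard error; exact two-sided permutation p = 0.80, where the smallest possible p is 0.10). Its sign was not stable when a library was left out and the members were chosen anew on the remaining libraries. It was 0.0447 points without SAM replicate 1 (14721 CpGs), 0.158 points without SAM replicate 3 (14809 CpGs) and 0.316 points without control replicate 3 (14731 CpGs). These values mix the loss of a library with the new choice of CpGs. In none of the 6 bins of level, 10 points wide each, were the groups apart, with exact permutation p of 0.30 to 1 before any adjustment.

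**Figure D2:**
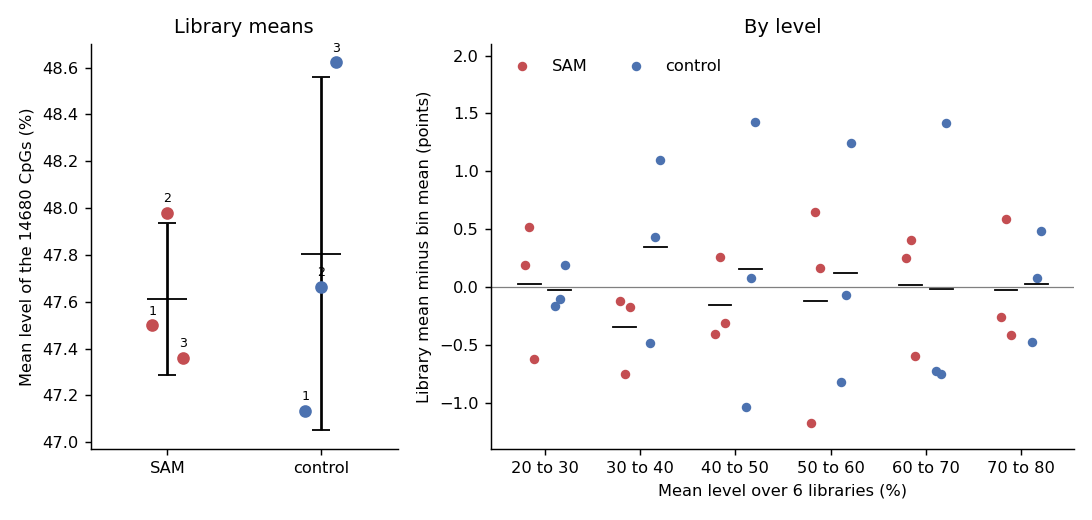
Left, mean methylation level (%) of the 14680 members in each library, SAM left of control, with replicate numbers and the group mean ± SD. Right, each library mean minus the mean of all 6 libraries (percentage points) in 6 bins of level, where bars give group means and the SAM and control points overlap in every bin.

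Differences at single members ran in both directions. With SAM, 6934 members had a higher mean than in controls, 7745 a lower mean and 1 the same mean, and the median difference was -0.554 points. The 10th and 90th percentiles of the difference were -15.9 and 16.3 points, and 1223 members (8.33%) differed by more than 25 points. In 1460 members (9.95%) all SAM libraries lay on one side of all control libraries, 672 of them with higher and 788 with lower values with SAM. The same held for 4.91% of all covered autosomal CpGs (2.7% higher and 2.2% lower) and for 10% of CpGs of 20 to 80% in sparser windows, so the share among members was close to that of other intermediate CpGs.

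No member passed the test of treatment. The quasi-likelihood test of edgeR on methylated and unmethylated reads, fitted on 257696 CpGs and adjusted by Benjamini-Hochberg, called 0 of the 14680 members at an adjusted p under 0.05, against 0% of all CpGs tested, and the smallest adjusted p of a member was 0.887. At an unadjusted p under 0.05 there were 234 members (1.59%), against 2.87% of all CpGs tested. With limma on log2 ratios, 0 members were called and 507 (3.45%) had an unadjusted p under 0.05, against 3.49% of all CpGs. Among windows with 3 or more members, 0 of 1437 were called by edgeR or by limma, against 0% of all 33583 windows tested. At an unadjusted p under 0.05 there were 16 such windows by edgeR (1.11%, against 3.11% of all windows) and 11 by limma (0.765%, against 4.23%).

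Of the 5 members with the smallest p, 4 lay close together on chromosome 21 and 1 on chromosome 1, all in windows of very high depth, where reads of repeated sequence may be collected. That was not tested, so the levels at these CpGs may not be those of 1 locus. The CpG at chr21:9825992-9825993 had 82.3%, 88.4% and 80.7% in SAM replicates 1 to 3, against 55.2%, 55.8% and 51.2% in control replicates 1 to 3. Its neighbours at chr21:9825995-9825996, chr21:9825980-9825981 and chr21:9825975-9825976 were higher with SAM by 27.9, 24.6 and 19.2 points. The 4 CpGs share reads and had 3790 to 80233 reads per library. The CpG at chr1:156186629-156186630 had 72.7%, 75.8% and 74.9% in SAM replicates 1 to 3, against 36.3%, 38.1% and 25.6% in control replicates 1 to 3, with 160 to 10407 reads. In each of these 5 CpGs all SAM libraries lay above all control libraries, and each had an adjusted p of 0.887 in edgeR's test.

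The 5 windows holding members with the smallest p went both ways, and none passed (edgeR adjusted p = 0.99981 each). The window chr19:46518001-46519000, with 17 members, had read-weighted levels of 65.7%, 60.7% and 62.6% in SAM replicates 1 to 3, against 74.2%, 81.3% and 76.5% in control replicates 1 to 3. The window chr2:114299001-114300000, with 10 members, had 28.4%, 23.8% and 36.5% in SAM replicates 1 to 3, against 50.7%, 44.8% and 61.5% in control replicates 1 to 3. In both windows every SAM library lay below every control library. The other windows of this set were chr7:155602001-155603000 (8.93 points, SAM minus control), chr21:9825001-9826000 (9.18 points) and chr5:31639001-31640000 (-8.08 points). These differences are read-weighted over all covered CpGs of a window. Unweighted means of their members alone differed by 21.4, 3.71 and -11.2 points, in the same order. The chromosome 21 window was one of those of very high depth.

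Members were gathered in a minority of dense windows. At least 1 member lay in 2132 of the 6170 dense windows with a covered CpG (34.6%), the median such window held 4.5 members, and 436 held 1. The 523 windows with 10 or more members held 8804 members (59.97%). In these 523 windows the mean level of the members ranged over the 6 libraries by a median of 13.4 points, with a 10th percentile of 6.49 and a 90th of 26.5. The difference between the groups ran from -22.1 to 14.4 points, with a median size of 2.96, and was above 0 in 246 windows and below 0 in 277. The groups were apart in 44 of these windows (8.41%), against 9.03% of all windows with 10 or more covered CpGs.

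Dense windows with a member and 10 or more covered CpGs numbered 1881 and differed in what surrounded the members. In 381 (20.3%) at least 50% of the covered CpGs were intermediate, and these held 45.5% of the members. Mostly unmethylated windows, with at least 50% of CpGs under 20%, numbered 877 (46.6%) and held 28.7% of the members. Mostly methylated windows, with at least 50% over 80%, numbered 404 (21.5%) and held 14.3%. In 202 border windows (10.7%), which held 9.73% of the members, at least 10% of CpGs lay under 20% and at least 10% over 80%. The remaining 17 windows were mixed. Only 6 windows with 10 or more covered CpGs consisted of members alone.

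**Figure D3:**
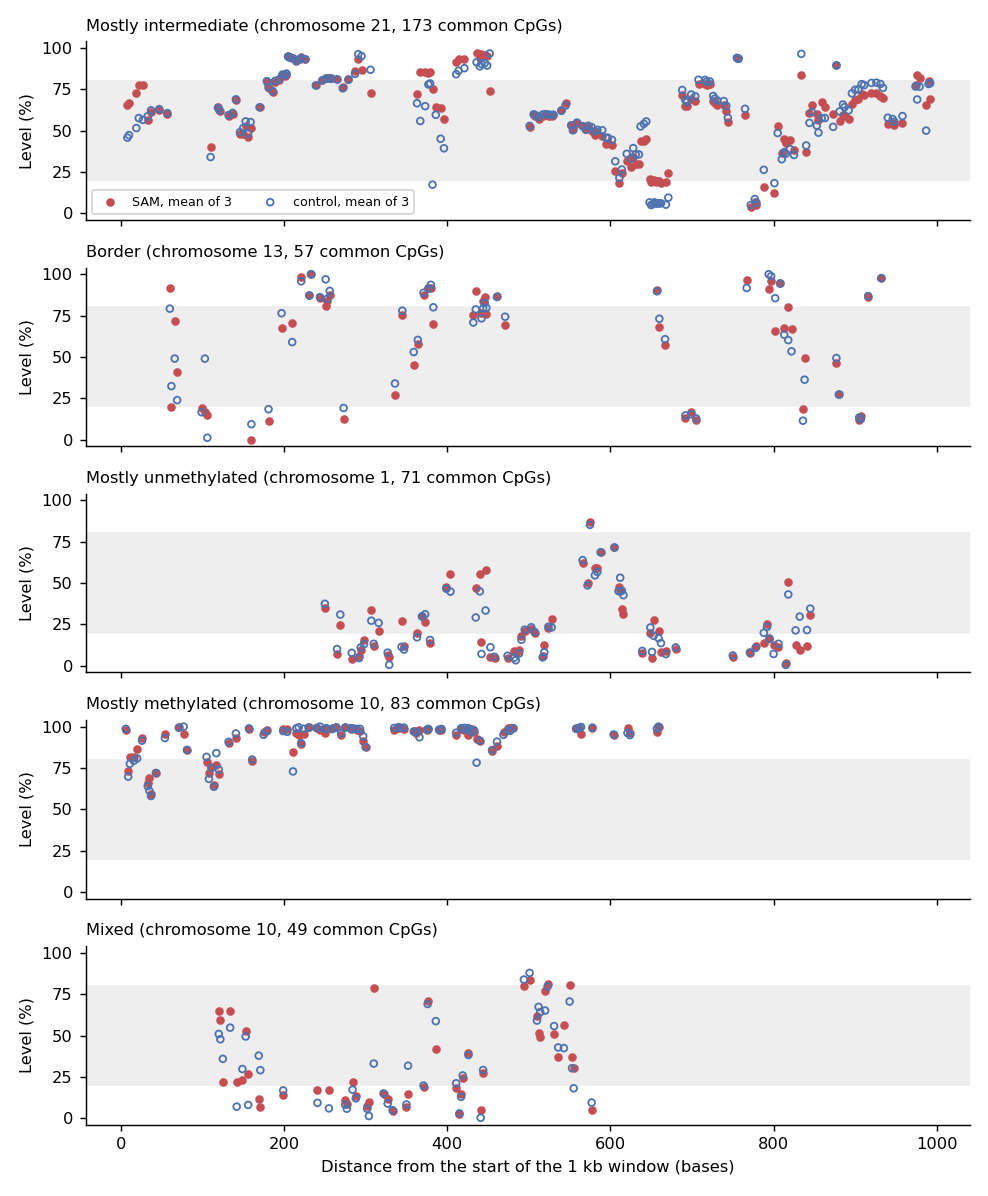
Methylation level (%, mean of 3 libraries, SAM filled and control open) of each covered CpG by its distance from the start of the 1 kb window (bases), for the window with the most covered CpGs in each of the 5 makeups, with the 20 to 80% range shaded. The chromosome 21 window had 123 members among 173 covered CpGs, and the mostly methylated window on chromosome 10 had 12 among 83, at its left side.

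Among these examples, the border window chr13:112727001-112728000 began 5538 bases after the placed start of SOX1, a transcription factor of neural progenitors, and held 24 members. Its members averaged 57.8% ± 2.39 in SAM libraries and 58.4% ± 1.58 in controls (SD, n = 3 each). The mostly unmethylated window chr1:230561001-230562000 began 78 bases after a placed start of PGBD5, a gene derived from a transposase, and held 31 members. They averaged 39.8% ± 6.99 in SAM libraries and 38.3% ± 5.94 in controls. The mostly methylated window chr10:81003001-81004000 held 12 members at 72.2%, 72.4% and 72.3% in SAM replicates 1 to 3, against 67.9%, 71.4% and 69.9% in control replicates 1 to 3, so that the SAM libraries lay above the controls by 2.55 points on average. The mixed window chr10:43725001-43726000 held 24 members, at 47.0% ± 6.43 in SAM libraries and 46.1% ± 5.96 in controls.

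The 10 windows with the most members were all mostly intermediate. First came the neighbouring windows chr21:9826001-9827000, with 123 members, and chr21:9825001-9826000, with 66. The members of chr21:9826001-9827000 had 59.2%, 61.8% and 57.2% in SAM replicates 1 to 3, against 57.9%, 57.2% and 60.5% in control replicates 1 to 3, which overlap. Those of chr21:9825001-9826000 had 48.5%, 49.7% and 48.7% in SAM replicates 1 to 3, against 45.2%, 42.6% and 47.96% in control replicates 1 to 3, which do not. The members of chr1:156186001-156187000, 43 in number, had 59.6%, 61.6% and 61.1% in SAM replicates 1 to 3, against 56.0%, 57.1% and 58.8% in control replicates 1 to 3, again apart. The windows chr21:9826001-9827000 and chr1:156186001-156187000 alone held 32.1% and 27.1% of all reads at members, and their median depths per library were 6041 to 30439 and 3043 to 18072 reads. Whether reads of several copies were collected in these 3 windows was not tested, and their levels may not be those of 1 locus. They held 232 of the 14680 members (1.58%), and without them the mean level of the members was 47.5% in SAM libraries and 47.7% in controls, a difference of -0.231 points (exact permutation p = 0.70).

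Several of the other windows with many members lay at placed gene starts. The window chr18:76739001-76740000 had 57 members and contained the start of SALL3, a zinc finger transcription factor, where the levels were 47.4%, 52.5% and 50.4% in SAM replicates 1 to 3, against 44.1%, 48.2% and 57.4% in control replicates 1 to 3. The window chr1:7764001-7765000 had 43 members and contained a start of CAMTA1, a calmodulin-binding transcription activator, with 37.8% ± 4.26 in SAM libraries and 37.6% ± 0.696 in controls (SD, n = 3 each). The window chr7:155251001-155252000 had 42 members and began 177 bases after the start of EN2, a homeobox transcription factor, with 52.4% ± 3.58 in SAM libraries and 57.4% ± 4.88 in controls. The window chr18:70534001-70535000 had 40 members and contained a start of NETO1, a membrane protein that associates with glutamate receptors, with 50.2% ± 4.71 in SAM libraries and 47.2% ± 6.50 in controls. In all 4 windows the groups overlapped. They also overlapped in the remaining windows of the 10, chr20:59827001-59828000 (51 members), chr5:180076001-180077000 (43 members) and chr1:1355001-1356000 (39 members), whose nearest placed starts were 812937, 57502 and 12328 bases away.

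Consecutive covered CpGs that were all members formed 5882 runs, with gaps of at most 200 bases. Members standing alone numbered 2988 (20.4%), whereas 795 runs of 5 or more held 41.8% of members and 164 runs of 10 or more held 14.9%. The longest run, chr21:9825881-9826190, had 47 CpGs, with 60.02%, 60.9% and 58.5% in SAM replicates 1 to 3, against 55.8%, 55.3% and 59.1% in control replicates 1 to 3. The next, chr1:156186321-156186630, had 40 CpGs and averaged 61.6% ± 1.01 in SAM libraries and 57.96% ± 1.40 in controls (SD, n = 3 each). Both runs lay in the windows of very high depth described above, so the same limit holds for them. The run chr7:50850213-50850470 had 28 CpGs and began 123 bases after a start of GRB10, an imprinted adaptor of growth factor signalling. Its levels were 53.5%, 51.9% and 62.4% in SAM replicates 1 to 3, against 51.7%, 60.4% and 44.6% in control replicates 1 to 3. Of these 5 runs, the groups were apart only in that on chromosome 1, and the remaining ones were chr21:9826501-9826607 (25 CpGs, also in a window of very high depth) and chr21:15077260-15077717 (24 CpGs).

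Levels of neighbours were alike over short distances. When the next covered CpG lay 2 to 10 bases from a member, it was itself intermediate in 68.8% of 9852 pairs, and the levels differed by a median of 13.1 points. At more than 100 and up to 200 bases these values were 40.8% and 25.8 points, over 370 pairs. Intermediate CpGs of sparser windows gave 66.3% and 13.5 points at 2 to 10 bases, and 40.1% and 26.5 points at more than 100 bases. The next CpG at 2 to 10 bases lay over 80% in 11.9% of the pairs for members and in 19.5% for sparser windows. These pairs share reads and libraries and are given without a test.

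Windows on both sides were measured for 200 of the 1437 windows with 3 or more members. In 112 of the 200 at least 1 flanking window was itself at 20 to 80%, and in 36 both were. One flank lay under 20% and the other over 80% in 46, both lay under 20% in 26 and both over 80% in 16.

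Both strands could be read apart at 733 members (4.99%), those with 10 or more reads on each strand in every library. The plus strand averaged 51.6% and the minus strand 55.1%, the median distance between the strands was 10.7 points, and in 206 (28.1%) it was over 20 points. In intermediate CpGs of sparser windows the median distance was also 10.7 points, and it was over 20 points in 21.9% of 461. Dense CpGs over 80% had a median distance of 1.51 points, and 2.39% of 1214 were over 20 points. With 20 or more reads on each strand the median was 10.7 points for 309 members and 7.66 points for 106 sparser CpGs.

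By chromosome, members made up between 7.26% of the covered dense-window CpGs (chromosome 12) and 18.2% (chromosome 21). On chromosome 21, 189 of the 475 members lay in the windows of very high depth, and without these windows its share was 12.1%, below chromosomes 18 (14.6%), 13 (14.4%), 15 (13.98%), 20 (13.6%) and 11 (13.5%), among others. The mean level was higher with SAM on 11 autosomes and lower on 11. The groups were apart only on chromosome 9, where 421 members had 45.0%, 45.7% and 45.7% in SAM replicates 1 to 3, against 47.3%, 46.95% and 48.3% in control replicates 1 to 3. Its exact permutation p of 0.10 became 1 after Benjamini-Hochberg adjustment over the 22 autosomes.

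Member levels varied more between libraries than those of intermediate CpGs in sparser windows. For each library, the distance of each CpG from the mean of the other 5 libraries was taken. Its median over members was 7.18, 11.2 and 6.94 points in SAM replicates 1 to 3, against 6.99, 9.68 and 8.43 points in control replicates 1 to 3. The SAM and control libraries with the fewest reads, replicate 2 of each group, had the largest values. Averaged over the 6 libraries, the median distance was 8.41 ± 1.75 points for members, against 7.97 ± 1.802 at 15 to 39 listed CpGs, 7.63 ± 1.75 at 5 to 14 and 7.66 ± 1.91 at 1 to 4 (SD over 6 libraries). Members exceeded the sparser classes by 0.435, 0.783 and 0.746 points, in 6 of 6 libraries each (exact two-sided sign-flip permutation p = 0.031, the smallest possible, and 0.031 after Benjamini-Hochberg adjustment over 3 comparisons). Each distance is taken from the other 5 libraries, so the 6 differences are not independent and this p is only a guide. Counting error alone would give 3.15 to 5.17 points for members in the single libraries, and 3.23 to 5.99 points for the sparser classes. With reads thinned to 10 per CpG the medians fell on coarse steps and the differences of 0.333, 1 and 0.667 points did not pass (exact permutation, adjusted p of 1, 0.75 and 0.75), whereas their means over CpGs differed by 0.391, 0.761 and 0.762 points (exact permutation, adjusted p = 0.031 each).

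Intermediate levels were also kept less often in a library that had no part in the choice. When dense-window CpGs were chosen at 20 to 80% on 5 libraries, 75.4% ± 5.15 of them lay at 20 to 80% in the left-out library (SD over 6 libraries). The share was 77.1% ± 4.88 at 15 to 39 listed CpGs, 78.2% ± 4.61 at 5 to 14 and 78.6% ± 4.68 at 1 to 4. The dense class was lower by 1.70, 2.77 and 3.12 points, in 6 of 6 libraries each (exact two-sided sign-flip permutation, adjusted p = 0.031 each). The sets of 5 libraries overlap, so these 6 differences are not independent either, and the p is only a guide. The unlike levels of the pools, given above, limit this comparison too, and their part was not tested. Single libraries kept between 66.0% (SAM replicate 2) and 81.4% (SAM replicate 3) of the dense CpGs. With any 1 library left out the differences kept their sign, but 5 libraries cannot give a p below 0.0625.

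**Figure D4:**
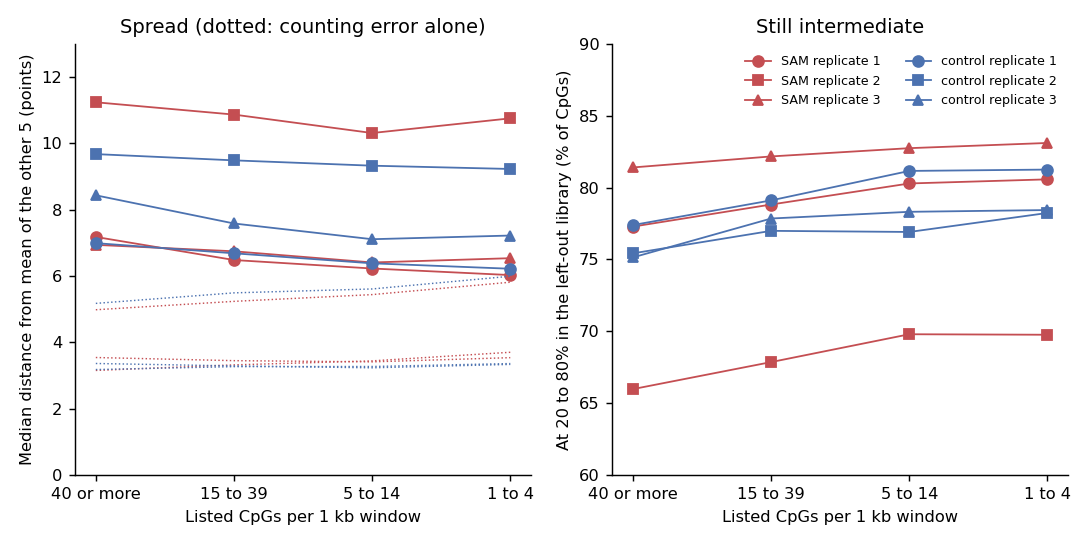
Left, median distance of a library from the mean of the other 5 (percentage points) for intermediate CpGs by number of listed CpGs per 1 kb window, 1 line per library (SAM red, control blue), with the distance that counting error alone would give dotted. Right, share of CpGs (%) chosen at 20 to 80% on 5 libraries that lay there in the left-out library, on an axis from 60 to 90%. In every library the dense class had a larger distance and a smaller share than each sparser class.

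Near gene start sites intermediate CpGs were a smaller part of the dense windows. Among dense-window CpGs, members made up 7.49% in the 250 bases before a placed RefSeq start and 8.74% in the 250 bases after it. The share was 14.3% at 750 to 1000 bases before the start and 17.3% at 1000 to 1250 bases after it. Within 250 bases, the share of CpGs at 20 to 80% in single libraries was 8.27%, 7.56% and 8.12% in SAM replicates 1 to 3, against 8.24%, 8.42% and 8.21% in control replicates 1 to 3. At 500 to 1500 bases it was 12.5%, 11.3% and 12.7% in SAM replicates 1 to 3, against 12.6%, 12.7% and 12.6% in control replicates 1 to 3. Of the members, 45.9% lay within 1500 bases of a placed start, against 58.9% of the other dense-window CpGs. Starts were placed only where CpGs were listed, so these shares cover a subset of genes.

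Of 20419 autosomal RefSeq promoters with 8 or more CpGs, 1245 could be placed with at least 80% of their CpGs listed, and 986 of these had 5 or more covered CpGs. A mean level of 20 to 80% was found in 106 of the 986 (10.8%), under 20% in 813 and over 80% in 67. Of the 106, 48 had a higher and 58 a lower mean with SAM, and the groups were apart in 10 (9.43%), against 7.71% of all 986 promoters. A looser rule, 8 or more listed CpGs whatever their share, placed 9506 promoters, of which 404 of 4963 measured (8.14%) were intermediate. Of these 404 the groups were apart in 47 (11.6%), against 7.52% of all 4963.

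Among the promoters with the most members, the levels of the groups mostly overlapped. Promoters were placed with 50 bases after the start besides the 250 before it, and the counts of members here cover both, so they can exceed those of the stretches printed above. CNTN4, with 22 members, had 45.7%, 43.3% and 39.5% in SAM replicates 1 to 3, against 39.8%, 45.4% and 42.9% in control replicates 1 to 3. ADCY1, also with 22 members, had 36.6%, 37.5% and 38.9% in SAM replicates 1 to 3, against 34.7%, 35.8% and 40.9% in control replicates 1 to 3. RGS7, with 21 members at the start shown above, had 70.01%, 69.9% and 74.7% in SAM replicates 1 to 3, against 73.6%, 75.3% and 74.4% in control replicates 1 to 3. In these promoters the groups overlapped. They also overlapped at GRIA2, a subunit of AMPA glutamate receptors (69.5% ± 2.96 in SAM libraries and 68.8% ± 3.19 in controls), and at CACNA1D, the pore subunit of an L-type calcium channel (34.2% ± 1.95 in SAM libraries and 30.9% ± 3.20 in controls, SD, n = 3 each). The same was true of PROK2, a secreted signalling protein, of IRX4, a homeobox transcription factor, of DGKI, a diacylglycerol kinase, of RAB31, a small GTPase of vesicle transport, and of TSPAN4, TMEM151A and ZFP69B-DT.

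The groups were apart at FBLN2 and PCSK6 among the 20 promoters with the most members, against 7.71% of all 986 promoters placed by the same rule and measured. The 20 include overlapping stretches at RGS7, so they are not all separate. FBLN2, an extracellular matrix protein, had 50.8%, 60.7% and 67.6% in SAM replicates 1 to 3, against 70.4%, 70.8% and 67.9% in control replicates 1 to 3. PCSK6, a protease that activates precursor proteins, had 25.9%, 23.3% and 26.2% in SAM replicates 1 to 3, against 33.3%, 28.4% and 30.9% in control replicates 1 to 3. Both were lower with SAM, with differences of -9.96 and -5.70 points, and at FBLN2 the nearest SAM and control libraries differed by less than 1 point. Neither promoter was tested singly.

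**Figure D5:**
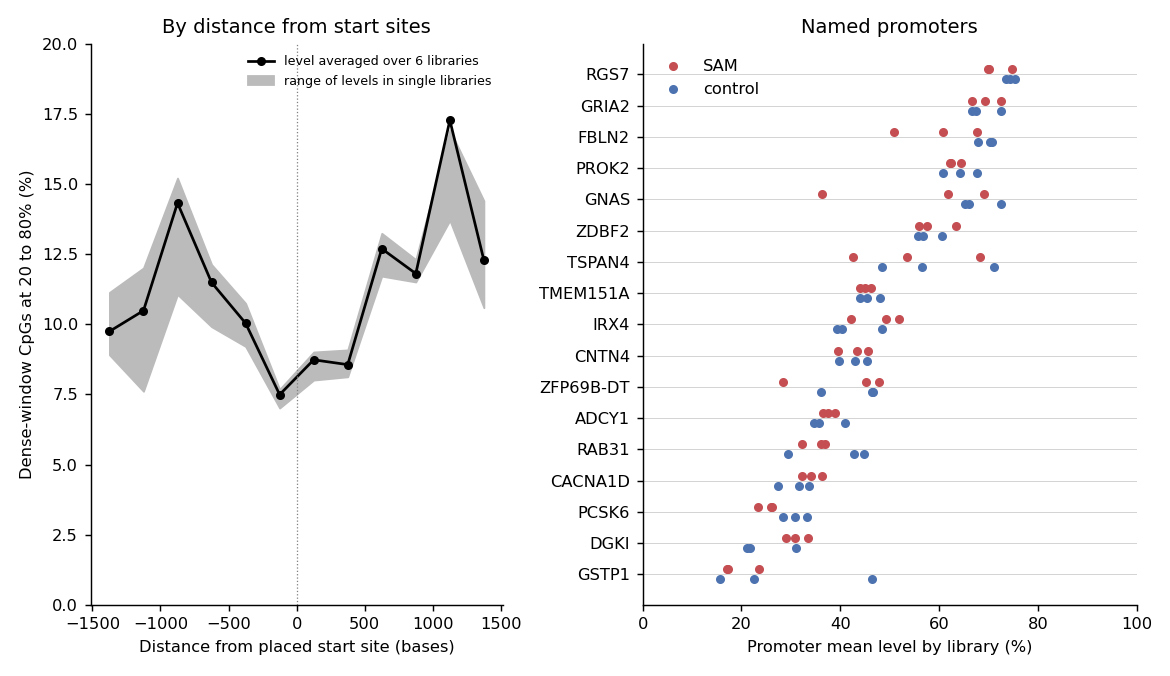
Left, share of dense-window CpGs at 20 to 80% (%) by distance from a placed start site (bases, negative before the start), for the level averaged over 6 libraries (line) and as the range over levels of single libraries (band). It is lowest, at 7.49%, in the 250 bases before the start. Right, mean level (%) of named promoters in each SAM and control library, where, of the promoters plotted, only FBLN2 and PCSK6 have all SAM points on 1 side of the control points.

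Few genes of the chosen lists could be measured. Of 37 imprinted genes, 6 promoters of 3 genes were measured under the looser rule, and 3 of the 6 were intermediate, against 8.14% of all promoters measured. ZDBF2 had 56.0%, 57.5% and 63.3% in SAM replicates 1 to 3, against 56.7%, 60.6% and 55.7% in control replicates 1 to 3. One start of GNAS, an imprinted locus encoding the stimulatory G protein alpha subunit, had 8 members and 61.7%, 36.3% and 69.2% in SAM replicates 1 to 3, against 65.2%, 66.0% and 72.6% in control replicates 1 to 3, with a lowest median depth of 10 reads. Another start of GNAS was intermediate (57.6% ± 6.08 in SAM libraries and 65.5% ± 9.75 in controls, SD, n = 3 each) but held no member. Its 6 covered CpGs had mean levels of 51.8% to 73.2% and lay in a window with 9 listed CpGs, under the bound of 40. The 2 measured starts of GRB10 lay under 20%, and the run of members described above lay near another placed start of that gene.

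Of 26 genes often methylated in prostate cancer, 6 promoters were measured and GSTP1 alone was intermediate. GSTP1 had 17.1%, 17.2% and 23.5% in SAM replicates 1 to 3, against 15.7%, 22.6% and 46.4% in control replicates 1 to 3, over 5 covered CpGs, so that 1 control library stood far above the other libraries. Its mean over the 6 libraries was 23.8% and would lie under 20% without control replicate 3, so the intermediate level of this promoter rests on that library. At the 1 start measured for each, the tumour suppressor genes RASSF1, RASSF5 and RARB and the lectin gene LGALS3 lay under 20%. The start measured for CDKN2A, a cell cycle inhibitor, lay over 80%, at 98.5% in SAM and 98.6% in control libraries. Any other starts of these genes were not measured, so their levels are not known. Of 22 germline genes, 5 promoters were measured and 0 were intermediate. Those of TDRD9, TDRD6, SYCP3 and SYCE1 lay over 80% and that of MAEL under 20%. The lists are small, and nothing particular to them can be read from these counts.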

How the data were processed

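Each deposited list gives cytosine positions on hg19 with strand and, per the file headers, coverage (a read count) and the percent of those reads showing C or T. The submitters' processing notes name CASAVA 1.8.2, FastQC 0.10.0, Bismark 0.7.4 and methylKit 0.5.3, with no role or order. For library type and duplicate removal, nothing is given in the sources used here. Throughout, the lowest deposited coverage was 10 reads. The libraries held 33056018 to 183523792 reads, and amplified copies cannot be told from separate molecules.

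Methylated reads were recovered as coverage times percent C, and the strands were joined. The members, gene lists and tests were chosen with earlier results of these data known. Treatment was tested with edgeR 4.0.16 (quasi-likelihood) and limma 3.58.1 (log2 ratios, count of 1 added) in R 4.3.3 on all CpGs with at least 1 methylated and 1 unmethylated read, and on windows with 3 or more covered CpGs, with Benjamini-Hochberg adjustment over all of them. Both tests were also run on simulated counts drawn with counting error alone, without further spread between libraries, so that run does not measure their power in these data. Library means were compared by exact permutation and classes by exact sign-flip over libraries. Named items were the 5 CpGs and 5 windows with the smallest p when fewer passed, the 10 windows with the most members, the 5 longest runs, the fullest window of each makeup, listed genes with intermediate promoters and the 20 other promoters with the most members. The spread by unthinned and thinned means, values without the deepest windows, strands at 20 reads and the looser promoter placement were added after the data were seen. Promoter sequences (RefSeq, GRCh38.p14) were placed by CpG spacing alone at 1 place per chromosome, and 99.8% of the placed starts followed the RefSeq order. Python 3.11.15, numpy 2.4.6, pandas 2.3.3, scipy 1.17.1 and numba 0.67.0 were used.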

Additional observations from a re-analysis of the deposited data

How the results depend on the processing

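The SAM minus control difference of the mean member level (-0.193 points) turned positive with CpGs weighted by coverage (1.15 points, exact permutation p = 0.70). It was also positive with coverage weights and without the 2 deepest windows (1.65 points, exact permutation p = 0.30, added after the data were seen). In the 3 libraries with the fewest reads, SAM replicates 2 and 3 against control replicate 2 alone, it was 0.00662 points. Leaving out each library, with the members chosen anew on the remaining libraries, gave -0.515 to 0.316 points. The other settings kept the sign, at -0.522 to -0.0156 points. The cause was not tested. The counts of called members and windows were 0 in every setting run, including each library left out, where the smallest adjusted p by edgeR was 0.131 (without SAM replicate 2). Library differences of members from the classes of 1 to 4, 5 to 14 and 15 to 39 listed CpGs kept their sign throughout. Without each library the spread differed by 0.73 to 0.914, 0.763 to 1.02 and 0.426 to 0.625 points, and the share still intermediate by -3.67 to -2.62, -3.21 to -2.24 and -2.03 to -1.46 points, none with a p that can pass. With reads thinned to 10 the median spread differed by 0.667, 1 and 0.333 points and did not pass. Intermediate promoters were 8.14% under the looser placement, against 10.8%. Same-numbered samples did not deviate together (r = -0.0121, 0.0105 and 0.00377), and samples of unlike numbers gave r of -0.0251 to 0.0279. With so few libraries, and r near 0 for every pair, this cannot show whether same-numbered samples were prepared together. With a replicate block the mean difference was -0.193 points (exact sign-flip permutation p = 1, smallest possible 0.25) and 0 CpGs and 0 windows were called. Replicate 2 of each group, at 41 to 45 median reads, limits the precision of single CpGs most.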
